A study of Homo sapiens with 12 samples.

Results

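Gene expression in WM35 cells, an established human melanoma line, was compared between 24 h and 8 h of lactimidomycin (LTM). The rule took the 2 arrays labelled LTM 24 h and the 3 arrays labelled LTM 8 h, 5 of the 12 arrays of the study, and all 12131 named genes that passed a detection filter. Cells grown in RPMI medium with fetal serum were plated overnight and treated with LTM at the concentration that gave 75% inhibition in assays of 72 h. Control RNA on 2 arrays came from cells with DMSO, the vehicle, whose labels do not say which time they belong to, and served both times. The remaining 5 arrays were of cells in trifluridine (TFT, an analog of thymidine) for 8 h (3 arrays) or 24 h (2 arrays), also at its 75% inhibitory dose. All groups were 1 cell line. Separate cultures are not stated for the replicates, and p-values therefore measure only the spread between these samples.

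LTM is a natural product that binds the exit site of the large ribosomal subunit and blocks translation elongation. Inhibitors of this kind are known to superinduce immediate early and cytokine mRNAs, because the labile repressors and decay factors that shut these genes off are no longer made. Stalled and colliding ribosomes also activate stress kinases and, through phosphorylation of eIF2 alpha, the transcription factor ATF4, which drives genes of amino acid synthesis, amino acid uptake and tRNA charging. Changes at 8 h can therefore be set beside those still present, or first present, at 24 h.

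Each of the 12 arrays detected 19485 to 20551 of its 47230 probes. Of 10 melanocyte markers, 6 were measured, among them the lineage factor SOX10 at a log2 intensity of 11.42 and 11.39 in control, while the pigment genes TYR, TYRP1, DCT and MLANA did not pass the filter and PMEL stayed at or near background, between 4.40 and 5.14. None of 8 keratinocyte markers passed, 3 of 8 leukocyte markers did but not the defining PTPRC and CD3E, and 1 of 6 endothelial markers did but not PECAM1 or VWF. Of the 3 leukocyte markers, CD68 was at 8.65 and 8.72 in control and between 8.00 and 8.99 on the LTM arrays. On the same arrays the other 2, CD79A and CD14, stayed between 4.49 and 5.77. The array labelled LTM 8 h replicate 1 went against its label. With each gene centred on its mean over the 12 arrays, it correlated over genes at r = -0.51 and -0.43 with LTM 8 h replicates 2 and 3, which correlated with each other at 0.79, and at 0.82 with TFT 24 h replicate 2. Arrays labelled TFT 8 h replicate 3 and TFT 24 h replicate 1 were also taken to go against their labels. The first was negative to TFT 8 h replicates 1 and 2 (r = -0.53 and -0.52). To LTM 8 h replicates 2 and 3 it gave 0.80 and 0.77. The second gave 0.48 to its own partner, TFT 24 h replicate 2, but 0.74 to TFT 8 h replicates 1 and 2 alike. A pair of arrays cannot by itself show which member is off. Counts over all genes and over gene lists are therefore given as labelled on 12 arrays and again on 9. Counts of list members called at 8 h against control are an exception. They are given on 9 arrays only, because as labelled no gene passed in that comparison. The 9 arrays leave out LTM 8 h replicate 1, TFT 8 h replicate 3 and TFT 24 h replicate 1. The time classes, which were mostly empty as labelled, are given on 9. Genes are not independent replicates, so the coefficients carry no test, and p-values on 9 arrays do not allow for the choice of arrays. On 9 arrays the TFT 24 h group is 1 array, which is assumed to vary like the other groups.

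Expression differed widely between the times. As labelled, 2460 genes (20.3% of those tested) were higher at 24 h than at 8 h and 2428 (20%) were lower, at an adjusted p under 0.05 by limma with Benjamini-Hochberg adjustment. On 9 arrays 3193 (26.3%) were higher and 3331 (27.5%) lower. Higher genes were thus 50.3% of calls as labelled and 48.9% on 9 arrays, and with median scaling in place of quantile normalization 59.6% and 60.5%. Leaving out LTM 8 h replicate 1 alone (11 arrays) gave 2273 (18.7%) and 2305 (19%). The labelled total of 4888 was 2770 without LTM 24 h replicate 2. Of the 4888 genes called as labelled, 4850 were also called on 9 arrays, each with the same sign. Both fits use the same LTM 24 h arrays and LTM 8 h replicates 2 and 3, so this overlap is not independent support. The 9-array difference is that between LTM 24 h and LTM 8 h replicates 2 and 3, and it moved by more than 0.5 on the log2 scale from the labelled one in 283 genes. The median difference over all genes was -0.04 as labelled and -0.03 on 9 arrays. Values are log2 intensities, a difference of 1 being a 2-fold change. Levels at 8 h are listed in the order of replicates 1, 2 and 3, and fewer cells of one kind cannot be told apart from less RNA per cell in such bulk samples. Unless 12 arrays are named, differences and adjusted p-values are those of limma on 9 arrays.

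Many of the genes with the largest rises were near or below the detection limit until 24 h. RUNDC3B, a RUN domain gene, was at 4.77 and 4.51 in control, 4.47, 4.55 and 4.44 at 8 h, and 9.08 and 9.40 at 24 h. It was not well above background on any control or 8 h array, and the mean of the 24 h arrays was at least 19.4-fold above the 8 h group (adjusted p = 6.28e-08 on 12 arrays and 7e-07 on 9). For such a bound the dimmer group's value on each array is the lowest signal detected there, or the probe's own if higher, and the brighter group's mean is divided by it. PSG4, a pregnancy-specific glycoprotein, was at 4.89 and 4.63 in control, 5.21, 5.26 and 5.34 at 8 h, and 9.02 and 9.23 at 24 h, and was not well above background in control. All 3 arrays at 8 h lay just above control and both 24 h arrays far above, a difference of 3.82 (SE 0.16, adjusted p = 1.2e-06; 3.85 on 12 arrays). The membrane protein TMEM45A was at 5.32 and 5.33 in control, 5.17, 5.15 and 5.25 at 8 h, and 8.95 and 8.54 at 24 h, so that only the 24 h arrays stood apart (3.54, SE 0.15, adjusted p = 1.2e-06), and its other probe rose by 3.45. The lipid transporter ABCA9 rose by 3.24 (SE 0.12), and the axonemal dynein DNAH3, not well above background on 8 h replicates 2 and 3, was at least 10.6-fold higher at 24 h. ABCA13 and the RAS-like RERGL were not well above background in control or at 8 h and were at least 7.06-fold and 6.09-fold higher at 24 h. PLA2G4C, a cytosolic phospholipase A2, was at 5.13 and 5.12 in control, 5.46, 4.71 and 4.77 at 8 h, and 8.41 and 8.81 at 24 h, with 8 h replicates 2 and 3 below both control values and not well above background. It was at least 12.6-fold higher at 24 h than on those 2 arrays (adjusted p = 1.2e-06).

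The largest fall was in CCL2, which encodes the monocyte chemoattractant MCP-1. Its level was 8.94 and 8.79 in control, 10.39, 11.82 and 11.97 at 8 h, and 7.71 and 7.12 at 24 h. Every 8 h array, including replicate 1, was above control, and both 24 h arrays were below control, with no overlap between any of the groups. The difference from 8 h to 24 h was -3.98 (SE 0.64, adjusted p = 0.000792) on 12 arrays and -4.48 (SE 0.18, adjusted p = 1.2e-06) on 9. Several other large falls began from levels close to control at 8 h. NES, the intermediate filament protein nestin, was at 10.07 and 10.26 in control, 10.13, 9.69 and 10.01 at 8 h, and 7.58 and 7.22 at 24 h and fell by 2.45 (SE 0.16, adjusted p = 6.77e-06). The Notch ligand DLL3 was at 9.44 and 9.51 in control, 9.50, 9.04 and 9.12 at 8 h, and 6.84 and 6.64 at 24 h. Both 24 h arrays were the lowest of the 7 and DLL3 fell by 2.34 (adjusted p = 2.87e-06), although its other probe gave -0.06 and did not pass. The long noncoding RNA SLCO4A1-AS1 fell by 2.94, the calcium-binding protein gene S100A4 by 2.23, the pterin dehydratase PCBD1 by 2.24 and the glutathione transferase MGST3 by 2.10, and on 12 arrays these differences were -2.80, -2.43, -2.41 and -2.38.

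Genes were sorted into time classes from their differences to control at 8 h and 24 h and from the difference between the times. Both differences to control use the same 2 control arrays, and no test was made between them. On 12 arrays no gene passed for LTM 8 h against control with limma (0%, with 1938 at an unadjusted p under 0.05), so that the classes that need an 8 h call were empty as labelled, and late genes alone remained (953 up and 1080 down). On 11 arrays 730 genes (6.02%) rose and 548 (4.52%) fell at 8 h, and on 9 arrays 2288 (18.9%) and 2294 (18.9%). At 24 h the counts against control were 2885 (23.8%) up and 2866 (23.6%) down as labelled and 3788 (31.2%) and 3914 (32.3%) on 9 arrays. Without LTM 24 h replicate 2 the labelled total of 5751 was 3724, and without control replicate 2 it was 3827. Of 12131 genes on 9 arrays, 114 were early-transient, 144 partly returned, 293 sustained, 1270 growing, 1578 late and 231 reversed, and 8501 were in no class. Without LTM 8 h replicate 1 alone, 84 of the 114 early-transient genes, 199 of the 293 sustained genes and 1529 of the 1578 late genes kept their class, against 180 of 1270 growing, 32 of 231 reversed and 7 of 144 partly returned genes. The late class thus depends least, and the partly returned, growing and reversed classes most, on which arrays set the spread.

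**Figure D1:**
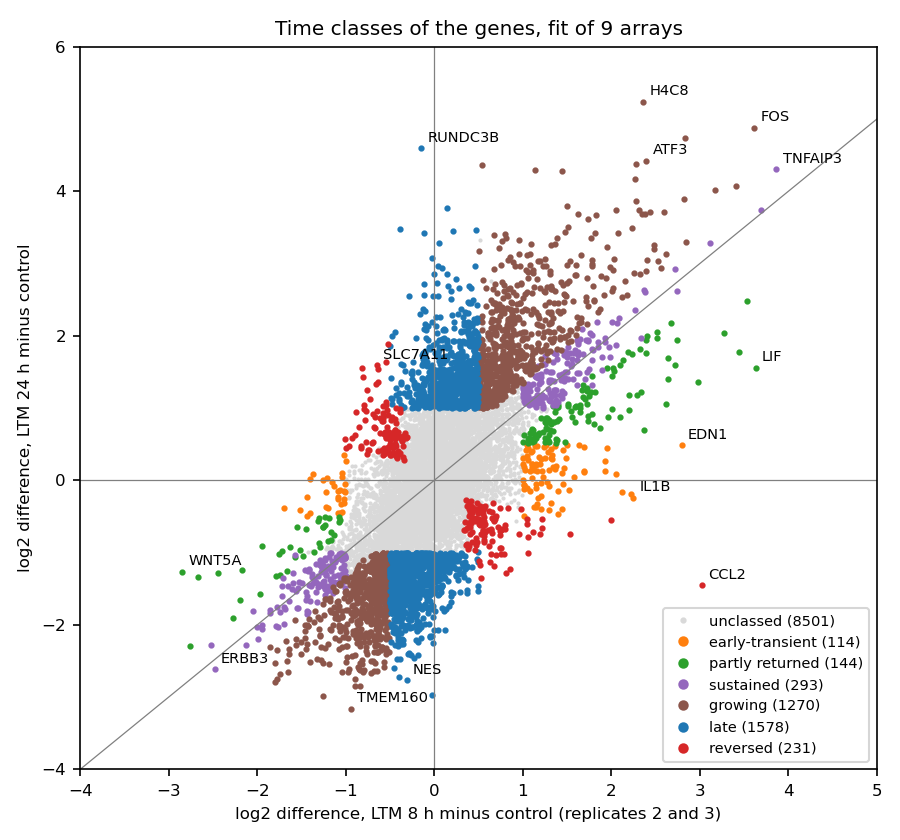
Each point is 1 gene, with its log2 difference to control at 8 h of LTM (horizontal, replicates 2 and 3) and at 24 h (vertical), coloured by time class in the fit of 9 arrays. Both axes use the same 2 control arrays, and the diagonal marks equal differences at both times. The 1578 late genes lie in vertical bands near 0 at 8 h, and CCL2 lies alone at the lower right, high at 8 h and below control at 24 h.

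Early-transient genes were at least 2-fold from control at 8 h and within 0.5 of it on the log2 scale at 24 h, and 83 of them were up and 31 down. EDN1, which encodes the vasoconstrictor and melanocyte mitogen endothelin-1, was at 7.17 and 7.26 in control, 7.13, 9.99 and 10.04 at 8 h, and 7.86 and 7.54 at 24 h. Replicates 2 and 3 were the 2 highest arrays and replicate 1 was the lowest, so that the fall from 8 h to 24 h was 2.31 on 9 arrays (SE 0.14, adjusted p = 4.16e-06) but did not pass as labelled (adjusted p = 0.24). IL1B, the cytokine interleukin 1 beta, was at 7.13 and 6.84 in control, 8.50, 9.31 and 9.17 at 8 h, and 7.03 and 6.47 at 24 h. Here all 3 arrays at 8 h were above all others, and it fell by 2.25 (adjusted p = 0.00359) on 12 arrays and by 2.49 (adjusted p = 1.11e-05) on 9. The neutrophil chemokine CXCL8 was at 12.31 and 12.27 in control, 12.81, 13.75 and 13.71 at 8 h, and 12.36 and 12.41 at 24 h and also passed both ways (adjusted p = 0.0151 and 1.33e-05). ST3GAL1, a sialyltransferase, PRICKLE1, a planar polarity protein, KLHL21, a ubiquitin ligase adaptor of mitosis, and FOSL1, an AP-1 subunit, fell from 8 h to 24 h by 2.41, 2.29, 1.97 and 1.51, and none of these passed as labelled (adjusted p = 0.0606 to 0.0943). The other PRICKLE1 probe gave -0.10. In the opposite direction, SEMA4D, a semaphorin, was at 8.67 and 8.65 in control, 8.12, 7.18 and 7.33 at 8 h, and 8.64 and 8.71 at 24 h. It was lowest at 8 h on all 3 arrays, and rose again by 1.42 (SE 0.12, adjusted p = 1.32e-05; 0.023 on 12 arrays). The membrane metalloprotease MMP16, the lysosomal and endosomal protein TM9SF2 and the spindle protein ASPM returned by 1.32, 1.21 and 0.96 from 8 h, with adjusted p = 0.0821, 0.0662 and 0.188 on 12 arrays. Of the 114 early-transient genes, 32 differed between 24 h and 8 h as labelled and 89 on 11 arrays.

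Partly returned genes were called on 1 side of control at both times, were at least 2-fold from it at 8 h and were called nearer to it at 24 h, with 107 up and 37 down. LIF, the leukemia inhibitory factor, was at 5.51 and 5.43 in control, 6.65, 9.11 and 9.10 at 8 h, and 7.05 and 7.01 at 24 h. On replicates 2 and 3 it was 3.63 above control at 8 h and at 24 h 1.56 above, a fall of 2.07 (SE 0.11, adjusted p = 3e-06), while with replicate 1 included the adjusted p was 0.241. RGS2, a regulator of G protein signalling, was at 8.31 and 8.25 in control, 9.72, 11.69 and 11.76 at 8 h, and 10.07 and 10.05 at 24 h and showed the same order of groups. The kinase NUAK2, the phosphatase DUSP1, which switches off MAP kinases, and the growth factors NRG1 and BMP2 fell by 1.05, 1.12, 1.24 and 1.67 between the times and were still 2.48, 1.60, 1.40 and 0.70 above control at 24 h. The other NRG1 probes gave 0.32 and -0.03. The proto-oncogene MYC was at 9.19 and 9.34 in control, 9.24, 11.39 and 11.16 at 8 h, and 10.68 and 10.74 at 24 h. It fell by 0.56 on 9 arrays (adjusted p = 0.00628), its other probe (-0.38) not passing, whereas as labelled the difference was 0.11 (adjusted p = 0.901). On the side of lowered genes, WNT5A, a secreted Wnt ligand linked to melanoma invasion, was at 7.64 and 7.41 in control, 7.54, 4.59 and 4.75 at 8 h, and 6.14 and 6.38 at 24 h. It was not well above background on 8 h replicates 2 and 3, which puts it at least 5.93-fold under control there, and at 24 h it was at least 2.47-fold higher again (adjusted p = 1.73e-05; 0.607 on 12 arrays). The heat-inducible chaperone HSPA1A was at 8.86 and 8.68 in control, 7.91, 6.10 and 6.10 at 8 h, and 7.32 and 7.53 at 24 h and recovered by 1.32 (adjusted p = 0.0002); its near-identical copy HSPA1B can share its signal. The collagen COL5A2 recovered by 1.16, and cyclin B1 (CCNB1) by 0.44, to -1.05 relative to control at 24 h.

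Sustained genes were at least 2-fold from control in 1 direction at both times with no call between them, which does not show that the levels at 8 h and 24 h were equal. There were 163 up and 130 down. TNFAIP3, which encodes the NF-kB inhibitor A20, was at 4.94 and 4.76 in control, 4.98, 8.82 and 8.61 at 8 h, and 8.80 and 9.53 at 24 h. Replicate 1 sat close to the control level and replicates 2 and 3 at that of the 24 h arrays, so the difference between the times was 0.45 (SE 0.21, adjusted p = 0.103) on 9 arrays and 1.69 (SE 1.21, adjusted p = 0.298) on 12. The NF-kB subunit RELB was at 6.53 and 6.55 in control, 6.56, 9.22 and 9.30 at 8 h, and 9.28 and 9.65 at 24 h, again with replicate 1 close to the control level. The metalloprotease ADAMTS6, the stress-responsive nuclear protein ANKRD1, the cytokine IL1A and the long noncoding RNA PVT1, the neighbour of MYC, were 3.75, 3.29, 2.63 and 2.63 above control at 24 h, and differed between the times by 0.05, 0.18, -0.12 and 0.26. ERBB3, a neuregulin receptor of the melanocyte lineage, was at 10.30 and 10.05 in control, 9.60, 7.68 and 7.70 at 8 h, and 7.63 and 7.48 at 24 h. By this probe it was -2.48 at 8 h and -2.62 at 24 h relative to control, but its 2 other probes fell further between the times, by 1.29 (adjusted p = 0.000113) and 0.55 (adjusted p = 0.0404), so that ERBB3 was not level by all probes. IGSF3, an immunoglobulin superfamily protein, and SIRPA, the receptor for the CD47 signal, were at -2.28 and -2.19 relative to control at 24 h.

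Growing changes were called on 1 side of control at both times, were at least 2-fold at 24 h and were called further from control than at 8 h, in 665 genes up and 605 down. Genes within 0.5 of control at 8 h were counted as late, whether called there or not. ATF3, a stress-induced transcription factor, was at 7.68 and 7.57 in control, 9.40, 10.09 and 9.96 at 8 h, and 11.90 and 12.21 at 24 h. All 3 arrays at 8 h were above control and both 24 h arrays above those, with a difference between the times of 2.24 (SE 0.67, adjusted p = 0.0215) on 12 arrays and 2.03 (SE 0.13, adjusted p = 6.45e-06) on 9. FOS, the immediate early AP-1 subunit, was at 6.65 and 6.55 in control, 7.28, 10.33 and 10.10 at 8 h, and 11.59 and 11.38 at 24 h. The groups again lay in order without overlap, and the further rise of 1.27 passed on 9 arrays (adjusted p = 5.17e-05) and not on 12 (adjusted p = 0.152). EGR1, KLF10 and DDIT3, which encodes the pro-apoptotic factor CHOP, gained 1.08, 1.12 and 1.31 after 8 h, with adjusted p = 0.066, 0.0824 and 0.0657 on 12 arrays. The natriuretic peptide gene NPPB was at 5.11 and 4.81 in control, 5.15, 7.78 and 7.82 at 8 h, and 9.90 and 9.51 at 24 h and gained 1.90 (adjusted p = 1.49e-05 on 9 arrays and 0.0142 on 12). The histone genes H4C8 and H2AC6 gained 2.88 and 2.10, and H4C8 was at least 32.3-fold under its 24 h level in control, where neither array had it well above background. Among the genes that went on falling, TMEM160, a mitochondrial membrane protein gene, was at 10.33 and 10.43 in control, 10.31, 9.39 and 9.49 at 8 h, and 7.23 and 7.21 at 24 h. Replicate 1 was just under the control arrays, replicates 2 and 3 were lower, and the 24 h arrays were lowest, a fall after 8 h of 2.22 (SE 0.12, adjusted p = 3e-06). NME3, a nucleoside diphosphate kinase, CHCHD10, a mitochondrial cristae protein, and NRGN, a calmodulin-binding protein, fell further by 2.01, 1.95 and 1.74. Thymidylate synthase, TYMS, fell by 0.93 after 8 h and was at -1.60 relative to control at 24 h. MXD3, a MAX-binding repressor, was not well above background at 24 h and was at least 1.88-fold lower than at 8 h.

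Late changes, within 0.5 of control at 8 h, called and at least 2-fold off at 24 h and called between the times, were the most common class, with 755 genes up and 823 down. ASNS, asparagine synthetase, was at 11.90 and 11.90 in control, 12.17, 12.30 and 12.20 at 8 h, and 14.21 and 14.21 at 24 h. The 3 arrays at 8 h, replicate 1 included, lay between control and 24 h, and it rose after 8 h by 1.99 (SE 0.22, adjusted p = 0.000103) on 12 arrays and 1.96 (SE 0.11, adjusted p = 3.8e-06) on 9. ASNS was already called above control at 8 h, by 0.35 (limma on 9 arrays, adjusted p = 0.0305), and counts as late by the limit of 0.5. The lipoxygenase ALOXE3 and the double-stranded RNA sensor IFIH1 rose by 2.99 and 2.45. Of 28 interferon-stimulated genes 6 rose and 9 fell, beside 26.3% and 27.5% of all genes. As labelled 3 rose and 9 fell, beside 20.3% and 20%. Their median of 0.00 had no stable sign. It was 0.10 with median scaling, 0.13 with the mean of probes and -0.33 as labelled. Among the members, ISG15, IFITM2 and IFITM3 fell by 1.37, 1.37 and 1.46. RRM2B, the p53-inducible ribonucleotide reductase subunit, rose by 2.32 and ASCC3, a helicase that splits collided ribosomes and repairs alkylated DNA, by 2.01, but of the other ASCC3 probes 1 rose (1.09) and 1 fell (-0.50). On the falling side, NME4, a mitochondrial nucleoside diphosphate kinase, fell by 2.15, DUSP23, a small phosphatase, fell by 2.08, and TMSB15A, a thymosin, was at least 2.96-fold lower and not well above background at 24 h. SOX10 was at 11.42 and 11.39 in control, 11.13, 11.59 and 11.46 at 8 h, and 10.36 and 10.40 at 24 h. The 5 earlier values were all above both 24 h values and SOX10 fell by 1.14 (SE 0.11, adjusted p = 3.52e-05; -1.01, adjusted p = 0.000562 on 12 arrays). Of the 1578 late genes, 1561 also differed between the times as labelled, in a fit that shares most of the same arrays.

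Reversed genes were called on opposite sides of control at the 2 times and met the terms of neither the early-transient nor the late class. FOSL1, counted as early-transient, was also called on both sides of control, at 1.02 at 8 h and -0.496 at 24 h. CCL2 had the largest fall between the times of the 117 that ended below control. PDLIM4, a PDZ and LIM domain protein, was at 5.22 and 5.12 in control, 5.43, 7.23 and 7.11 at 8 h, and 4.52 and 4.73 at 24 h. It was not well above background at 24 h and was at least 4.84-fold lower there than on 8 h replicates 2 and 3. JARID2, a Polycomb cofactor, was at 8.76 and 8.69 in control, 8.36, 10.23 and 10.28 at 8 h, and 7.96 and 7.99 at 24 h and fell by 2.28 (adjusted p = 2.22e-06; 0.056 on 12 arrays). The other 114 genes went from below to above control. SLC7A11, the cystine and glutamate exchanger that supplies glutathione synthesis, was at 7.43 and 7.61 in control, 7.32, 6.80 and 6.95 at 8 h, and 9.19 and 9.05 at 24 h. All 3 values at 8 h were under both control values and both 24 h values were above, a rise of 2.10 (adjusted p = 5.34e-05) on 12 arrays and 2.25 (SE 0.13, adjusted p = 3.96e-06) on 9. NCAM2, an adhesion molecule, was at 7.21 and 7.33 in control, 7.30, 6.82 and 6.65 at 8 h, and 8.98 and 9.31 at 24 h, with the same order except that replicate 1 lay between the control values. TFPI, an inhibitor of tissue factor, rose by 2.37 after 8 h. Another TFPI probe rose by 1.84, and a further one (0.37) did not pass. The chaperone HSPA4L rose by 2.18.

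**Figure D2:**
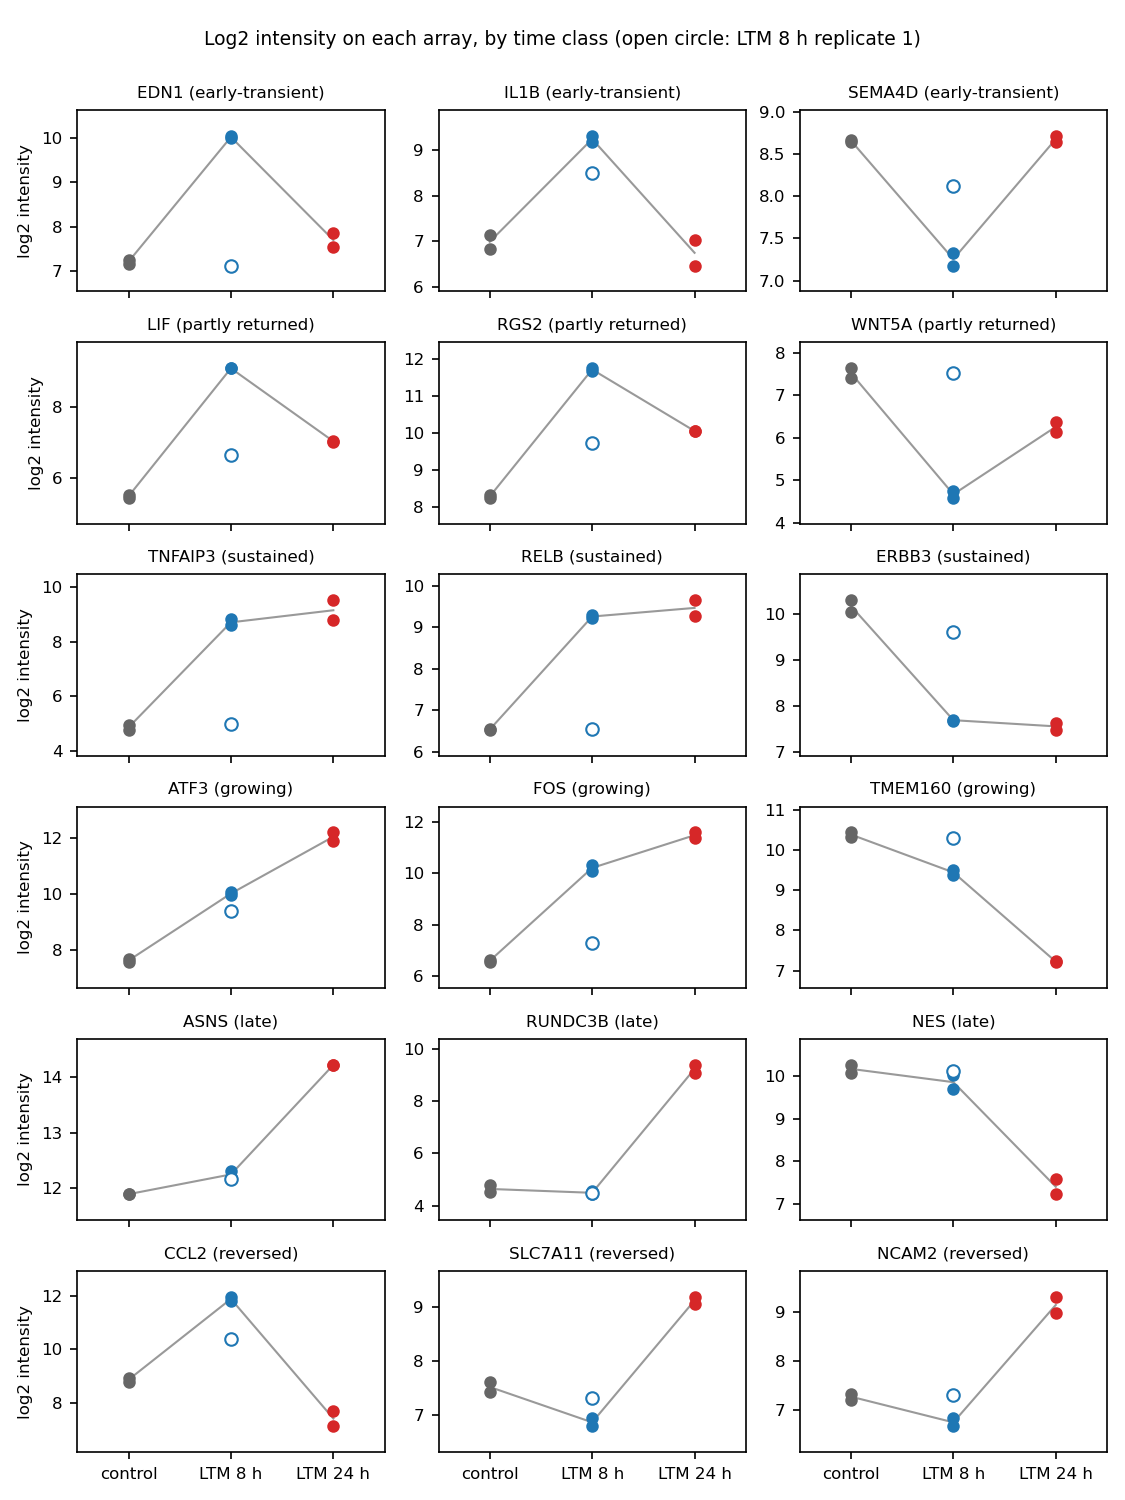
Log2 intensity (vertical) of 18 genes on each control, LTM 8 h and LTM 24 h array, 3 genes per time class and row. Filled points are arrays, the open circle is LTM 8 h replicate 1, and grey lines join group means without it. For EDN1, TNFAIP3 and RELB the open circle lies at the control level, whereas for IL1B, ATF3 and ASNS it lies on the side of the other 8 h arrays.

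Genes that supply amino acids and charged tRNA rose more often than they fell between 8 h and 24 h. Aminoacyl-tRNA synthetases attach each amino acid to its tRNA. Of 18 measured, 17 rose and 0 fell on 9 arrays (16 and 0 as labelled), with a median of 1.07, beside 26.3% and 27.5% of all genes (20.3% and 20% as labelled) and a median of -0.03. Counts of the other lists are to be read against the same shares. FARSA, a subunit of the phenylalanine enzyme and named after its value was seen, did not pass, at -0.05. Of the 18, 10 were late and up and 1 was reversed and up, beside 6.22% and 0.94% of all genes. At 8 h 3 were above and 1 below control, beside 18.9% of all genes in each direction. IARS1, for isoleucine, was at 10.80 and 10.70 in control, 10.96, 10.82 and 10.90 at 8 h, and 12.52 and 13.17 at 24 h. The 24 h arrays were the 2 highest, and the difference was 1.99 (SE 0.19, adjusted p = 2.6e-05; 1.96 on 12 arrays), while its other probe rose by 0.43. LARS1, TARS1 and GARS1, for leucine, threonine and glycine, rose by 1.94, 1.80 and 1.56. Of 20 genes of amino acid and one-carbon synthesis, 12 rose and 3 fell (11 and 3 as labelled), with a median of 0.63. The cystathionine lyase CTH, which makes cysteine, was at 6.74 and 6.78 in control, 7.60, 8.19 and 8.21 at 8 h, and 11.12 and 10.96 at 24 h. It rose at both times and by 2.84 (SE 0.17, adjusted p = 3.96e-06) between them, with 2.71 and 2.63 by its other probes. PSPH, the last enzyme of serine synthesis, ALDH1L2, a mitochondrial folate enzyme, and BCAT1, a branched-chain aminotransferase, rose by 1.99, 1.83 and 1.54, and PYCR3, an enzyme of proline synthesis, fell by 1.57. Of 22 amino acid transporters, 11 rose and 1 fell (11 and 0 as labelled), with a median of 0.36. The glutamate transporter SLC1A3 was not well above background at 8 h and at least 4.19-fold higher at 24 h, SLC43A2 rose by 2.09, and SLC3A2, the heavy chain partner of SLC7A11, by 1.13. SLC38A2, a neutral amino acid transporter, was lower at 8 h and rose back by 1.24, to 0.03 relative to control. Of 23 regulators of the integrated stress response, 14 rose and 0 fell on 9 arrays (median 0.61), but as labelled 5 and 0. They included ATF3, DDIT3, the thioredoxin-binding protein TXNIP (1.58) and the bZIP repressor NFIL3 (1.68). GDF15, a stress-induced cytokine, was at 5.18 and 5.44 in control, 8.18, 5.03 and 5.27 at 8 h, and 6.16 and 5.92 at 24 h. Replicate 1 was the highest of all, so GDF15 rose by 0.89 on 9 arrays (adjusted p = 0.000746) and was at -0.12 as labelled (adjusted p = 0.927).

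ATF4 acts with C/EBP partners on an element whose core is TGATGNAA, and promoters were searched for these letters on both strands. Windows ran from 250 bases before to 50 bases after each start in the RefSeq table of GRCh38.p14. The letters were in 192 of 9681 tested genes with a window (1.98%), in 5 of 15 synthetases, 4 of 15 synthesis genes, 4 of 19 transporters and 3 of 20 stress response regulators. Shares in other lists ran from 0 of 36 proteasome genes to 2 of 13 BCL2 family genes, more of which fell than rose. Among the time classes the letters were in 20 of 633 late genes that rose and 6 of 674 that fell, in 11 of 551 growing genes that rose and 7 of 485 that fell, and in 0 of 64 early-transient genes that had risen at 8 h. A match is a description of the letters and not a bound site. Shown are stretches that lie wholly before the start of genes that rose after 8 h, with the match in capitals, which read as the reverse complement where it lies on the opposite strand. Each is written 5′ to 3′ on the gene's strand, at chr16:70289670-70289709 on the minus strand (AARS1, alanine tRNA synthetase), chr7:97872453-97872492 on the minus strand (ASNS), chr12:24949126-24949165 on the minus strand (BCAT1), chr6:150866341-150866380 on the plus strand (MTHFD1L, a mitochondrial folate enzyme), chr5:36596352-36596391 on the plus strand (SLC1A3) and chr1:212565200-212565239 on the plus strand (ATF3).
AARS1: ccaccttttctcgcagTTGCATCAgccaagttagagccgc
ASNS: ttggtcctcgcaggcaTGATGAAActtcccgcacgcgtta
BCAT1: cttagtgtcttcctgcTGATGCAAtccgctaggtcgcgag
MTHFD1L: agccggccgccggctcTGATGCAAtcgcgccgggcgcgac
SLC1A3: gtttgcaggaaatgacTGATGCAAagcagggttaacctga
ATF3: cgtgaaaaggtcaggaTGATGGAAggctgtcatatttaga
AARS1, ASNS, BCAT1, MTHFD1L and ATF3 rose by 1.01, 1.96, 1.54, 0.50 and 2.03 between 8 h and 24 h. The same letters were in the windows of PPP1R15B, a phosphatase subunit, and CHAC1, which degrades glutathione. Both were named for the match after their values were seen, and they differed by 0.05 and 0.04 without passing. Letters of the CRE, AP-1 and CArG elements were searched in the same windows. Those of AP-1 (TGANTCA) were in 453 of 9681 tested genes (4.68%) and also in 4 of 19 transporters. A raised share in transporters was therefore not particular to the ATF4 core.

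**Figure D3:**
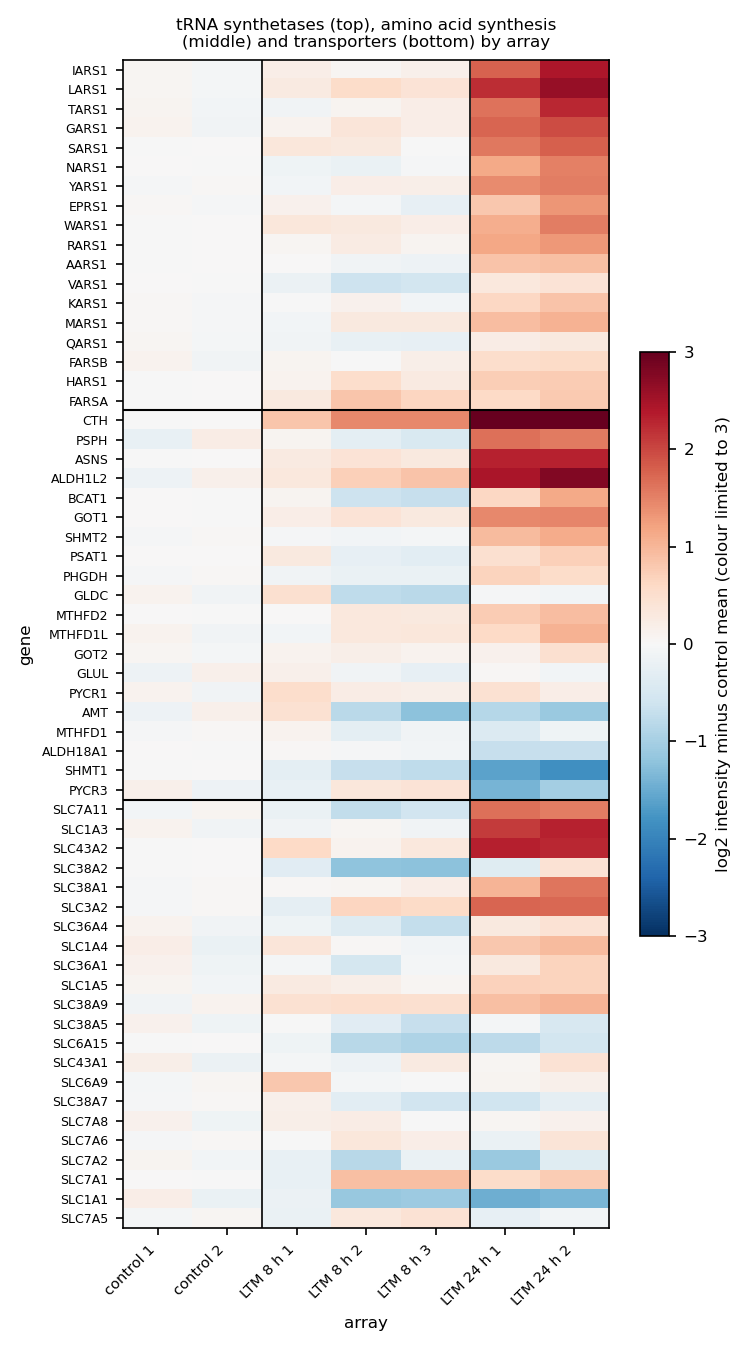
Rows are tRNA synthetases, genes of amino acid and one-carbon synthesis and amino acid transporters, and columns are the 7 control and LTM arrays. Colour gives log2 intensity minus the mean of the 2 control arrays, limited to 3 in either direction. Red fills most of the 2 columns of LTM 24 h in the top block, where 17 of 18 synthetases rose, while the 8 h columns are pale.

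Cytokine, NF-kB and immediate early genes split between falling back and rising on. Of 15 cytokine genes, 5 rose and 7 fell after 8 h (1 and 3 as labelled; median -0.12 both ways), and of 17 NF-kB subunits and inhibitors 7 rose and 2 fell (3 and 0 as labelled), with a median of 0.34. All genes had 26.3% up and 27.5% down, and 20.3% and 20% as labelled. Beside the falls of CCL2, IL1B, LIF and CXCL8, the prostaglandin synthase PTGS2 was at 5.63 and 5.71 in control, 7.38, 5.76 and 5.68 at 8 h, and 7.07 and 7.58 at 24 h. It lay close to the control level on 8 h replicates 2 and 3 and rose by 1.60 (adjusted p = 8.26e-05), whereas replicate 1 was as high as the 24 h arrays and the labelled comparison did not pass (adjusted p = 0.117). The precursor subunit NFKB2 was at 6.82 and 6.73 in control, 7.09, 9.16 and 9.20 at 8 h, and 9.77 and 9.88 at 24 h and gained 0.65 on 9 arrays (adjusted p = 0.000927; 0.142 on 12). BIRC2, an inhibitor of apoptosis that acts in this pathway, rose by 0.80 and the subunit REL, not well above background before 24 h, was at least 1.70-fold higher. The inhibitor NFKBIA fell by 0.54 (adjusted p = 0.0265) on 9 arrays but differed by 0.01 as labelled. Of 29 immediate early transcription factors, 9 rose and 12 fell on 9 arrays (3 and 4 as labelled), and their median of -0.15 turned to 0.23 as labelled, 0.06 with median scaling, 0.01 with cyclic loess and 0.03 without LTM 24 h replicate 2. ATF3, FOS, KLF10 and EGR1 led the rises, and ID3, an inhibitor of differentiation, and FOSL1 the falls, by 1.62 and 1.51. MAPK feedback genes had 5 up and 6 down of 20 (5 and 1 as labelled), close to the shares of all genes on 9 arrays, with a median of -0.12 that was 0.16 as labelled. The NF-kB site was found in 1227 of 9681 windows (12.7%), in 6 of 16 NF-kB genes and in 4 of 10 cytokine genes. Shares in other lists ran from 0 of 36 proteasome genes to 5 of 16 cholesterol genes and 7 of 22 interferon-stimulated genes. Among early-transient genes that had fallen at 8 h, 8 of 26 held the site, so a raised share was not particular to the 2 lists. Both strands were searched. One sustained gene, one late gene and one that fell back are shown, with 1 match each in capitals, at chr6:137867176-137867217 on the plus strand (TNFAIP3), chr2:60881511-60881552 on the plus strand (REL) and chr14:35404805-35404846 on the minus strand (NFKBIA). The windows of TNFAIP3 and REL hold 2 matches each. The other one of TNFAIP3 is not in capitals. That of REL overlaps the capitals, shifted by 1 base and read on the opposite strand.
TNFAIP3: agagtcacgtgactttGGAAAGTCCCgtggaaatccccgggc
REL: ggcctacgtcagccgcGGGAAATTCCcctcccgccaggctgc
NFKBIA: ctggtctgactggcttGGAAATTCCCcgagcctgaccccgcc

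Translation factor and splicing genes rose more often than they fell. Of 46 translation factors 24 rose and 5 fell (19 and 3 as labelled), with a median of 0.39, and of 28 splicing regulators 15 rose and 5 fell (15 and 2 as labelled), with a median of 0.56. EIF4A2, an RNA helicase of initiation, was at 11.47 and 11.53 in control, 11.57, 13.02 and 12.95 at 8 h, and 13.87 and 14.24 at 24 h. It was above control on replicates 2 and 3 and higher still at 24 h, by 1.07 (adjusted p = 0.000163; 0.0323 on 12 arrays). The ribosome recycling factor ABCE1 and the initiation factor EIF4G2 rose by 1.35 and 1.23, and EIF4EBP1, which holds eIF4E inactive, fell by 1.75. The SR protein kinases CLK4 and CLK1 rose by 2.18 and 1.76, and 2.36 by the other CLK1 probe. Ribosome biogenesis had 18 up and 12 down of 46 genes (15 and 6 as labelled), with a median of 0.07 that was 0.35 as labelled, and 29 rose at 8 h against control (18.9% of all genes). Members went opposite ways: UTP14A rose further by 1.36, NOP58 by 1.25 late, and NOP16 fell back by 1.18 to 0.05 above control. Among 21 snoRNA host and nonsense-mediated decay genes 8 rose and 3 fell (median 0.24), but as labelled 3 and 2, under the shares of all genes, with TAF1D at 2.07 and SNHG15 at 0.90. UPF2 rose by the probe used (0.71), as did another (0.77), but its 2 remaining probes fell, by 1.82 and 0.81. Among 21 mRNA decay regulators 10 rose and 2 fell (7 and 1 as labelled), with a median of 0.33. TOB1, which recruits deadenylase, was at 8.49 and 8.52 in control, 8.81, 7.25 and 7.02 at 8 h, and 8.70 and 8.48 at 24 h and regained 1.46 on 9 arrays (adjusted p = 2.28e-05; 0.151 on 12), and the decapping enzyme DCP2 and the deadenylase subunit PAN2 rose by 1.14 and 1.52.

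Histone, p53 target and zinc finger genes also rose more often than they fell. Of 35 histone genes 20 rose and 5 fell (16 and 3 as labelled), with a median of 0.46, led by H4C8, H2AC6, H2BC11 (2.05) and H4C14 (1.90). Replication-dependent histone genes resemble each other so closely that 1 probe can read several. Of 33 p53 targets 21 rose and 4 fell on 9 arrays (median 0.51), beside 26.3% and 27.5% of all genes. As labelled 7 rose and 2 fell, beside 20.3% and 20% of all genes. RRM2B, ZMAT3, an RNA-binding target (1.90), PPM1D, the phosphatase that restrains p53 (1.72), and PMAIP1, which encodes the BH3 protein NOXA (1.58), rose, and the pro-apoptotic BAX fell by 1.56, its other probe by 0.35. Of 273 zinc finger genes with a ZNF number, a family that includes many DNA-binding repressors, 107 rose and 47 fell (82 and 25 as labelled), with a median of 0.25. ZNF571 was at 4.85 and 4.89 in control, 4.62, 5.89 and 5.45 at 8 h, and 8.10 and 8.46 at 24 h. It was not well above background in control, slightly above on replicates 2 and 3, and rose by 2.62 (SE 0.18, adjusted p = 7.21e-06; 0.00036 on 12 arrays). ZNF224 and ZNF627 rose by 2.31 and 2.17.

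Genes of the mitochondrial respiratory chain and of both kinds of ribosome fell more often than they rose after 8 h. Of 66 oxidative phosphorylation genes 51 fell and 5 rose on 9 arrays (49 and 2 as labelled), with a median of -0.90, beside 27.5% and 26.3% of all genes. NDUFB7, a complex I subunit, was at 12.09 and 12.13 in control, 12.27, 11.95 and 11.96 at 8 h, and 9.95 and 9.91 at 24 h. Control and 8 h arrays overlapped and both 24 h arrays were far below, a fall of 2.02 (SE 0.11, adjusted p = 3.02e-06; -2.13, adjusted p = 4.47e-05 on 12 arrays). NDUFB2 and NDUFB6 of complex I fell by 1.93 and 1.87, and UQCR10 of complex III by 1.69. Another complex III subunit, UQCRB, fell by 1.69 by 1 probe, while its other probes gave -0.21, which did not pass, and 0.38, which did. At 8 h, 14 of the 66 were below and 0 above control, beside 18.9% of all genes in each direction. Late and down were 28 of the 66, beside 6.78% of all genes. Of 74 mitochondrial ribosomal proteins 47 fell and 9 rose (44 and 6 as labelled; median -0.64 both ways), with MRPL14, MRPL36 and MRPS24 falling by 1.94, 1.92 and 1.81, and at 8 h 10 were below and 9 above control. Of 68 cytosolic ribosomal proteins 38 fell and 2 rose (34 and 2 as labelled), with a median of -0.34. RPL29 was at 11.70 and 11.90 in control, 12.08, 11.39 and 11.65 at 8 h, and 10.26 and 9.84 at 24 h, and fell by 1.47 by either probe. RPS28, already under control at 8 h, fell by a further 1.08.

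DNA replication genes fell more often than they rose, and mitosis genes moved both ways. DNA replication genes numbered 48, of which 31 fell and 3 rose (24 and 1 as labelled), with a median of -0.56. At 8 h, 15 of the 48 were below and 2 above control (18.9% of all genes each way). GINS2, a subunit of the replicative helicase, was at 11.63 and 11.66 in control, 11.19, 11.39 and 11.36 at 8 h, and 9.92 and 9.27 at 24 h. Both 24 h arrays lay below all others and it fell by 1.77 (SE 0.18, adjusted p = 4.24e-05; 0.000253 on 12 arrays). The transcription factor E2F2, the polymerase subunit POLD1, the helicase subunit MCM2 and the chromatin assembly factor CHAF1A fell by 1.58, 1.47, 1.37 and 1.33. Of 55 mitosis genes 36 were below and 0 above control at 8 h, and between the times 15 rose and 15 fell, as did 26.3% and 27.5% of all genes. As labelled 6 rose and 13 fell, and the median of that later difference was 0.04 on 9 arrays and -0.10 as labelled. UBE2C, the ubiquitin conjugase of the anaphase-promoting complex, the kinase AURKB and the centromere protein CENPM fell by 1.62, 1.46 and 1.58. The condensin subunit NCAPG was at 10.87 and 10.81 in control, 10.71, 10.26 and 10.32 at 8 h, and 11.17 and 11.71 at 24 h. It was lowest on all 3 arrays at 8 h and highest at 24 h, a rise of 1.15 (adjusted p = 0.000298; 0.00188 on 12 arrays), and CDCA2, a phosphatase regulator of anaphase, returned by 1.37.

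The smaller groups are set against 26.3% of all genes up and 27.5% down on 9 arrays, and 20.3% and 20% as labelled. Heat shock genes were below control in 11 and above it in 4 of 26 at 8 h (18.9% of all genes each way), and 13 rose and 5 fell afterwards (8 and 3 as labelled), with a median of 0.55. HSPA4L was at 5.90 and 6.09 in control, 6.41, 5.46 and 5.44 at 8 h, and 7.48 and 7.77 at 24 h. Replicates 2 and 3 were under and the 24 h arrays over control (adjusted p = 6e-06; 0.000773 on 12 arrays), while the mitochondrial co-chaperonin HSPE1 fell by 1.81. Of 25 ER chaperone and unfolded protein genes 6 rose and 9 fell (5 and 7 as labelled), with a median of -0.17. SDF2L1, SEC61B and CALR fell by 1.87, 1.67 and 1.23 and the co-chaperone DNAJB9 rose by 1.07. Of 17 BCL2 family genes 4 rose and 10 fell (3 and 7 as labelled), with a median of -0.47. MCL1, a labile survival protein, was at 9.46 and 9.29 in control, 9.55, 10.41 and 10.54 at 8 h, and 9.23 and 9.57 at 24 h. It changed by -1.08 after 8 h by this probe (adjusted p = 0.000179) and its other probe rose by 1.02, so that its direction is not settled. The BH3 proteins BCL2L11 and BAD fell by 1.26 and 0.97, the other BCL2L11 probe not passing. Matrix genes fell in 17 and rose in 7 of 37 (11 and 5 as labelled; median -0.31), among them COL4A2 by 1.75, TIMP3 by 1.29 and TNC by 1.55. TGF-beta family genes had 4 up and 9 down of 20 (1 and 7 as labelled; median -0.28), with the activin antagonist FST down by 1.76 and SMAD3 by 1.24. Cholesterol genes had 2 up and 9 down of 19 (2 and 7 as labelled), with a median of -0.31. LSS fell by 1.13, and INSIG1, the sterol-regulated retention protein, rose by 1.53, although its other probe (0.18, adjusted p = 0.311) did not pass. Glycolysis and hypoxia genes had 6 up and 13 down of 29 (4 and 9 as labelled), with a median of -0.18. YAP targets had 5 up and 9 down of 24 (4 and 2 as labelled), with a median of -0.12 that was 0.26 as labelled, 0.04 with median scaling and 0.01 with cyclic loess. Proteasome genes had 11 up and 15 down of 41 (8 and 14 as labelled), with a median of -0.12 that was 0.01 with median scaling or cyclic loess and 0.09 without LTM 24 h replicate 2. Tubulins had 2 up and 3 down of 14 both ways. Of 16 melanocyte genes 5 rose and 4 fell (4 and 4 as labelled), close to the shares of all genes. Their median of 0.03 was -0.17 with probes detected on all arrays, -0.07 with a replicate block and -0.13 without LTM 24 h replicate 2. MITF, the lineage's master regulator, was at 5.37 and 5.80 in control, 5.98, 6.01 and 6.33 at 8 h, and 6.91 and 7.23 at 24 h and rose by 0.90 (adjusted p = 0.0121; 0.0152 on 12 arrays). Of the fibroblast markers, 4 of 7 were measured and 2 rose (1 as labelled). These were LUM (1.12) and PDGFRB, at 0.54 on 9 arrays and -0.12 as labelled. The summed linear intensity of the 4 was 147.7 to 159.0 in control, 123.8 to 251.3 at 8 h and 194.5 to 197.2 at 24 h, COL1A1, COL3A1 and THY1 did not pass the filter, and their part in the results was not tested. The metabolic standard GAPDH differed by 0.16 (adjusted p = 0.29), and ACTB by -0.39 (adjusted p = 0.0168) by 1 probe and 0.14 by another.

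**Figure D4:**
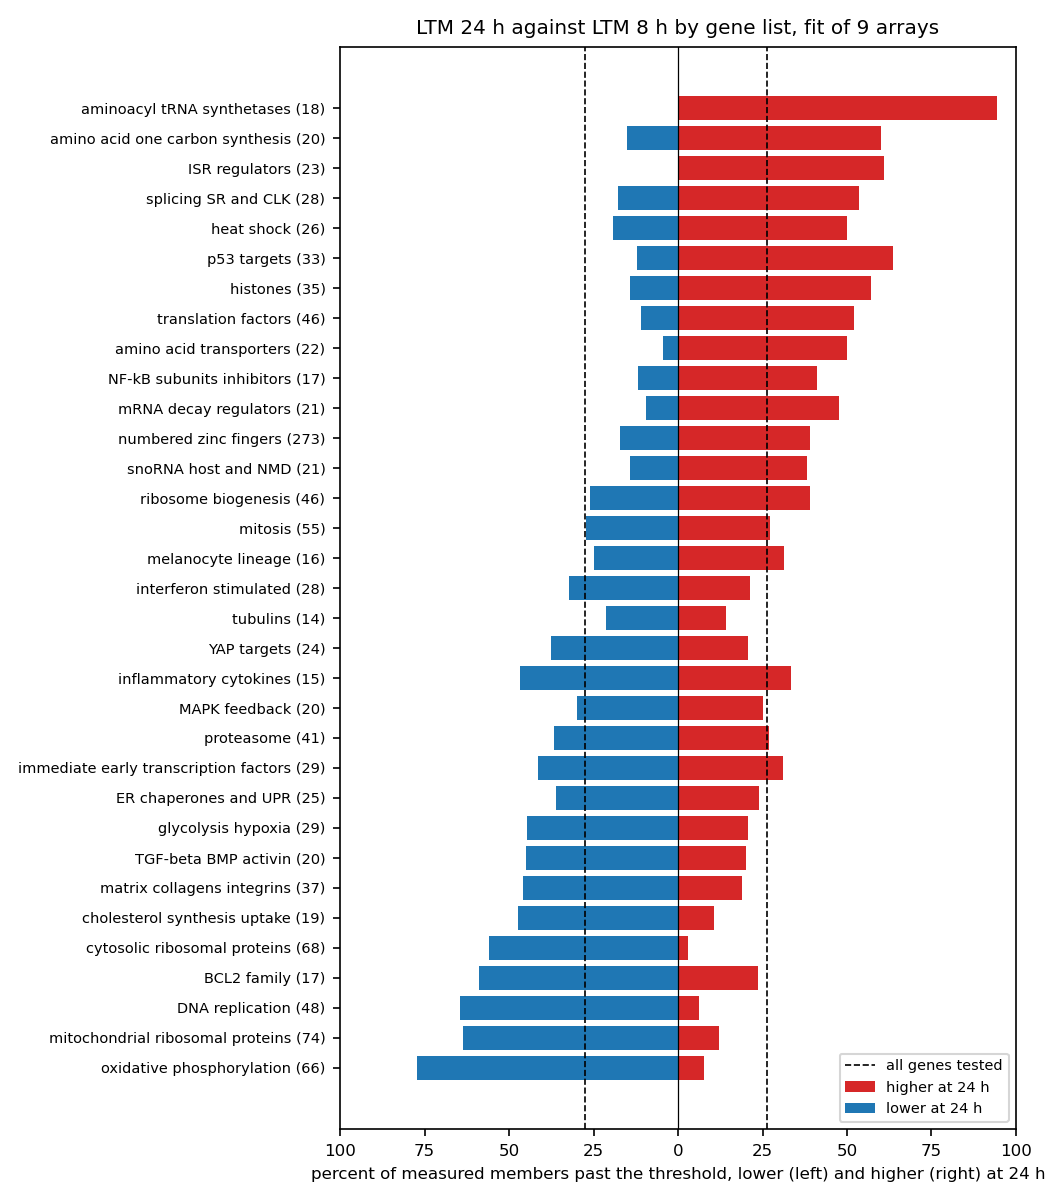
Bars give the percent of each list's measured members (numbers in brackets) that were higher (red, right) or lower (blue, left) at 24 h than at 8 h of LTM in the fit of 9 arrays, ordered by the median difference. Dashed lines mark all genes tested, 26.3% higher and 27.5% lower. The synthetase bar reaches 17 of 18 on the right and the oxidative phosphorylation bar 51 of 66 on the left.

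The change from 8 h to 24 h was compared between the drugs in the same fit. As labelled it differed between LTM and TFT in 3441 genes (28.4%). The signed change was higher under LTM in 1658 (13.7%) and lower in 1783 (14.7%), where lower includes a larger fall. Without LTM 24 h replicate 2 the labelled count was 1687, and without TFT 24 h replicate 2 it was 2008. The difference in change was 4.74 for RUNDC3B, 2.82 for CTH, 1.80 for ASNS, -2.26 for NDUFB7 and -3.54 for CCL2 on 12 arrays, with adjusted p = 2.51e-06, 0.0202, 0.00297, 0.000936 and 0.0163. For FOS it was 2.89 (adjusted p = 0.215) and for EDN1 0.01 (adjusted p = 0.998), and on 9 arrays 0.02 (adjusted p = 0.948) and -1.24 (adjusted p = 0.00248). As labelled, both TFT groups and LTM 8 h hold an array that goes against its label.

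Gene span, the distance between the ends of a gene in the RefSeq table of GRCh38.p14, was examined after the genes that changed most had been seen. It was known for 12121 of the 12131 genes. The late genes that rose had a median span of 51.7 kb (quartiles 25.6 and 107.7 kb), those that fell 11.7 kb (4.78 and 29.2 kb), and all genes tested 27.9 kb. Among 1637 genes under 5 kb, 10.3% rose and 38.8% fell between the times, with a median of -0.22. Of 867 genes over 200 kb, 35.1% rose and 15.7% fell, with a median of 0.14. As labelled these medians were -0.25 and 0.17. On 9 arrays the bins of 50 to 100, 100 to 200 and over 200 kb had medians of 0.16, 0.14 and 0.14, with no further rise. The fall of short genes also differed with promoter GC, the share of G and C in the promoter window. Under 5 kb, the median was -0.15 over 583 genes with a promoter GC under 64.7% and -0.49 over 443 with a higher one. The rest of the 1637 genes had no promoter window and are not in this split. Over genes, Spearman's rho of span with the difference from 8 h to 24 h was 0.26 on 9 arrays and 0.27 on 12, and with the difference of 8 h to control 0.03. These values describe the same libraries across genes that are not independent. On single arrays, the median over genes under 5 kb relative to control was 0.03, -0.09 and -0.06 at 8 h and -0.25 and -0.33 at 24 h, and over genes above 200 kb it was -0.06, 0.02 and 0.00 at 8 h and 0.15 and 0.25 at 24 h. Both 24 h arrays thus stood apart from all 3 arrays at 8 h at both ends of the scale.

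**Figure D5:**
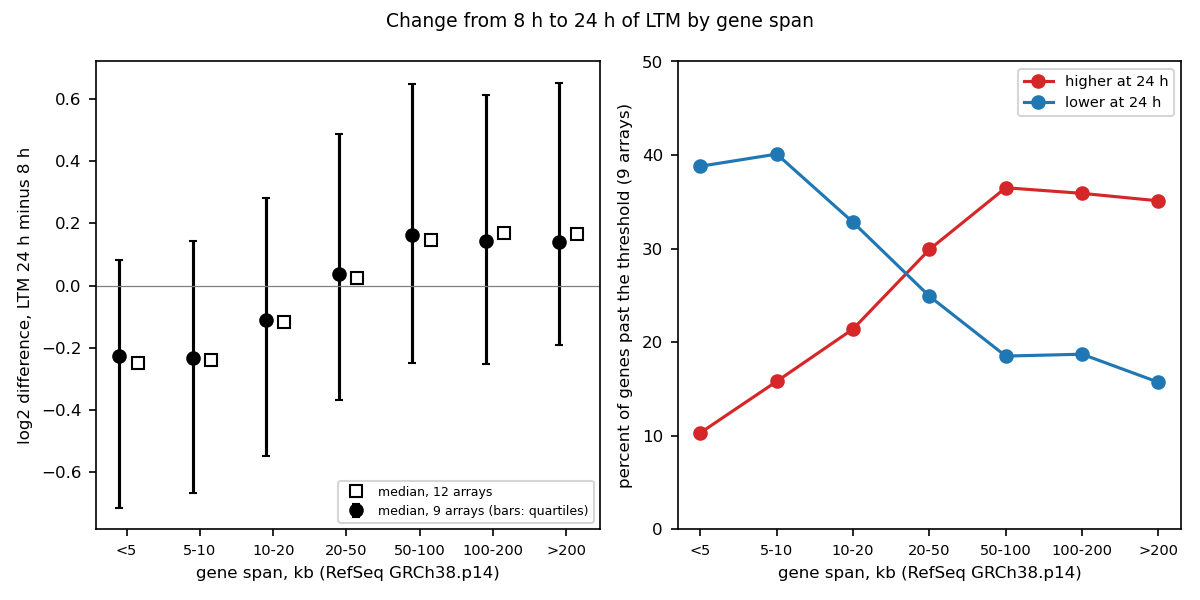
Left, the median log2 difference between 24 h and 8 h of LTM in 7 bins of gene span, with quartiles over genes as bars for 9 arrays and open squares for 12 arrays. Right, the percent of genes in each bin higher or lower at 24 h on 9 arrays. The share that fell drops from 38.8% of genes under 5 kb to 15.7% of those over 200 kb.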

How the data were processed

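Total RNA of WM35 cells was measured on 12 one-colour Illumina bead arrays. The deposited intensity values are mean bead signals per probe and array that GenomeStudio exported, per the submitters' processing notes (its release is not given in the sources used here). Values below 0 occur, so background had been subtracted, and nothing in the values had been equalised between arrays. The detection p-value beside each signal, per the file headers, compares the probe with negative control beads. A second table of linear intensities that the authors processed by a method not stated (38223 probes) was used only as an alternative. Log2 values were computed here from the deposited intensities with normexp and quantile normalization (neqc of limma 3.58.1 in R 4.3.3, offset 16), with the negative controls implied by the detection p-values.

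Probes with a detection p under 0.05 on at least 2 arrays were kept (24325 of 47230). Of these, 15954 had 1 gene symbol in the platform annotation and 8371 had none there. The probe with the highest mean stood for each of 12131 genes, of which 3007 had several, and where other probes of a named gene disagreed this is said. Group means were fitted with lmFit and eBayes over all genes, with 7 residual degrees of freedom on 12 arrays and 4 on 9, and p-values were adjusted by Benjamini-Hochberg within each comparison at a threshold of 0.05. Depth has no counterpart on arrays, and the number of arrays limits the precision. The scripts were tested on simulated data.

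Genes named were the largest rises and falls between the times, the largest of each time class, up to 6 per gene list, and fixed genes, with 142 clone-type names passed over. The 33 gene lists, 4 lists of other cell types' markers, the members and the tests were chosen with earlier results of these data known. The titles number the replicates but do not say that equal numbers are paired, and the main fits used no pairing. Same-numbered LTM 8 h and 24 h arrays deviated together at r = 0.18 and 0.17, over only 2 pairs. The 2 LTM 24 h arrays deviate from their mean as mirror images, so these values cannot settle whether the numbers pair the samples. Alternatives were the authors' processed table, a floor in place of normexp, median scaling, cyclic loess, other filters, the mean of probes, a robust fit with a trend, control and LTM arrays only, a replicate block, other class limits and leaving out arrays.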

Additional observations from a re-analysis of the deposited data

Results flagged for a closer look

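The change from 8 h to 24 h differed between LTM and TFT by an interaction test in 3441 genes on 12 arrays and 4548 on 9 (limma, adjusted p under 0.05). Both TFT groups and LTM 8 h hold an array that goes against its label on 12 arrays. Among the genes named for their change under LTM, the difference in change on 12 arrays (LTM minus TFT, log2) was 4.74 for RUNDC3B, 4.37 for H4C8, 3.91 for PSG4, 3.64 for DNAH3, 3.44 for PLA2G4C, 3.42 for TMEM45A, 3.36 for ABCA9 and 2.94 for ABCA13. It was -2.49 for S100A4, -2.58 for MGST3, -2.61 for PCBD1, -2.62 for NES and for DLL3, -2.63 for TMEM160, -2.89 for SLCO4A1-AS1 and -3.54 for CCL2. These genes had been chosen for a large change under LTM. Outside the named genes, 2013 of 8371 probes without a gene name in the platform annotation differed between LTM 24 h and LTM 8 h on 12 arrays.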

How the results depend on the processing

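The 4888 genes that differed between LTM 24 h and LTM 8 h as labelled were 2770 to 4596 when 1 LTM array was left out, lowest without LTM 24 h replicate 2. For LTM 8 h against control, no gene passed as labelled, but 7 did with a floor in place of normexp, 1 with median scaling, 2 without a filter, 1 with probes detected on all arrays, 1 with the mean of probes, 4582 on 9 arrays and 0 to 1278 with 1 array left out. On 9 arrays, that count of 4582 was 2630 with a replicate block, 2943 with crossed control numbers, 1278 on 11 arrays, 0 as labelled and 2979 to 3271 with 1 array left out. LTM 24 h against control gave 5751 genes as labelled and 3724 to 4674 with 1 control or LTM 24 h array left out, of which 3827 without control replicate 2, and 6437 without LTM 8 h replicate 1. The drug difference of 3441 genes was 1687 to 3421 with 1 array left out, and on 9 arrays 4548 became 2764 with a replicate block and 3455 to 5468 with 1 array left out. The replicate block gave 5584 genes for LTM 24 h against LTM 8 h as labelled and 4835 on 9 arrays, and whether the numbers pair these samples is not known. With the control numbers crossed, added after seeing the data because same-numbered control and LTM 24 h arrays deviated at r = -0.12, the counts were 5600 and 5185.

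Class sizes followed their limits. The 114 early-transient genes were 0 as labelled, 304 with limits of 0.6 and 0.3, and 16 with 1.5 and 0.5, and 109 to 130 with 1 of the 9 arrays left out, and 84 on 11 arrays. The 293 sustained genes were 462 with a floor, 0 as labelled, 893 and 72 with those limits, and the 1578 late genes were 517 with limits of 1.5 and 0.5. Reversals in sign among named genes were MCL1 (0.46) and UPF2 (-0.14) on 12 arrays with the mean of probes. Against 9 arrays, the labelled values were CHST1 -0.14, GDF15 -0.12, KCNS3 -0.29, MYC 0.11, NFKBIA 0.014, PDGFRB -0.12 and SFRP1 -0.36, SMG6 was 0.23 with probes detected on all arrays, and UPF2 -0.29 with the mean of probes. The cause was not tested. Of the named genes' values under alternatives, 3165 kept direction and call on 12 arrays and 139 kept only direction, and on 9 arrays 4000 and 128. The all-gene median was 0.06 and 0.07 with median scaling. Signals near background give bounds only.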
